A study of Homo sapiens with 6 samples.

Results

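The genes described here are 10 genes of MHC class II antigen presentation: the transactivator CIITA, the promoter-binding factor RFX5, the invariant chain CD74, and 7 HLA genes that encode class II chains (HLA-DRA, HLA-DRB1, HLA-DPA1, HLA-DPB1, HLA-DQB1, HLA-DMA and HLA-DMB). They were chosen by name, with earlier results of these data known. Each of the 10 symbols was found once among the 23227 Ensembl genes of the count table. RNA sequencing was carried out on MV4-11, an established line of human acute myeloid leukaemia, in 6 libraries. The 3 ENO1 knockdown libraries carry the name of 1 hairpin in their column headers (ENO1_sh2), and the 3 NC libraries are labelled as having had no treatment. All 6 are labelled WT in genotype, the letters NC are not spelled out, and whether the NC cells carried a control hairpin is not given. ENO1 encodes alpha-enolase, a glycolytic enzyme, and the series was set up to compare the transcriptome with and without it.

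Class II molecules are pairs of an alpha and a beta chain that carry peptides from endosomes to the cell surface, where CD4+ T cells read them. The invariant chain, CD74, occupies the groove of new class II molecules until HLA-DM, itself a class II-like pair of chains, exchanges its remnant for peptide. Transcription of these genes depends on CIITA, which binds no DNA itself and is recruited by a complex of RFX, CREB and NF-Y factors that sits on the X and Y boxes of class II promoters. CIITA is constitutive in B cells and dendritic cells, and interferon-gamma induces it in many other cells through JAK1, JAK2 and IRF1.

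The X and Y boxes are shown first because they are what the class II promoters have in common. The promoter sequences are RefSeq windows on GRCh38.p14, from 250 bases before to 50 bases after each gene start, and 8 of the 10 genes were matched by symbol; CIITA and HLA-DRA were not. The letters shared by the X boxes of HLA-DRB1, HLA-DQB1, HLA-DMA, HLA-DMB and HLA-DPA1, CNAGNNACNGA, were taken for the X box core and ATTGG for the Y box core, after these promoters had been seen, and both strands were searched. The windows below are 65 bases long and are given 5′ to 3′ on the gene's strand. Capitals mark the X box core, the Y box core, or, in CD74, the Y box core as it reads from the other strand.
HLA-DRB1: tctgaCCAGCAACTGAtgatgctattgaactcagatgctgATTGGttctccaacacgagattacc
HLA-DQB1: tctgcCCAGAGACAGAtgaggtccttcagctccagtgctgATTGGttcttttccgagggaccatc
HLA-DMA: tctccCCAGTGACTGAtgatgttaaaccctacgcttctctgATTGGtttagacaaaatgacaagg
HLA-DMB: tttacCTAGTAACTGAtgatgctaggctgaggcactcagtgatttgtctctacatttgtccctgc
HLA-DPA1: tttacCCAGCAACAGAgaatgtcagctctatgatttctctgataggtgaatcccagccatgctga
HLA-DPB1: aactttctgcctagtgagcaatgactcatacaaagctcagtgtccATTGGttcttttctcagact
CD74: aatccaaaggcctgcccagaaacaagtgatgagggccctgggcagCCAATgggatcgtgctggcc
The windows lie at chr6:32589870-32589934 for HLA-DRB1, chr6:32666721-32666785 for HLA-DQB1, chr6:32953153-32953217 for HLA-DMA, chr6:32941059-32941123 for HLA-DMB and chr6:33073691-33073755 for HLA-DPA1, all on the minus strand. Those of HLA-DPB1 and CD74 lie at chr6:33075846-33075910 on the plus strand and at chr5:150412944-150413008 on the minus strand.

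HLA-DRB1, HLA-DQB1 and HLA-DMA held the X box core followed by the Y box core on the gene's strand, with 24 bases between them in HLA-DRB1 and HLA-DQB1 and 25 in HLA-DMA. HLA-DMB and the second of the starts listed for HLA-DPA1 held the X box core without the Y box core after it. In HLA-DPB1 and CD74 the Y box core was found without these X box letters, and in RFX5 it was found, on the other strand, in 1 of 3 windows. Of all 35116 promoter windows, 3.35% held the X box core, 34.6% the Y box core on either strand, and 17 windows, of 17 genes, held the X box core followed by the Y box core 10 to 30 bases later (0.0484%). Of those 17 genes, 6 were class II genes, the other 3 being HLA-DRB5, HLA-DQA1 and HLA-DOA. Of the 11 that were not class II genes, 5 passed the filter on low counts in the expression data: MR1, which presents metabolites to T cells, rose by 0.37 on the log2 scale (edgeR adjusted p = 1.50e-06), MMS22L and RPL14 fell by 0.42 and 0.25 (edgeR adjusted p = 4.68e-08 and 6.80e-07), and PSMA3 and ZMYND11 did not pass the test. The 5 were picked out with their values known. The X box letters were drawn from class II promoters, so its frequency there is a description.

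**Figure D1:**
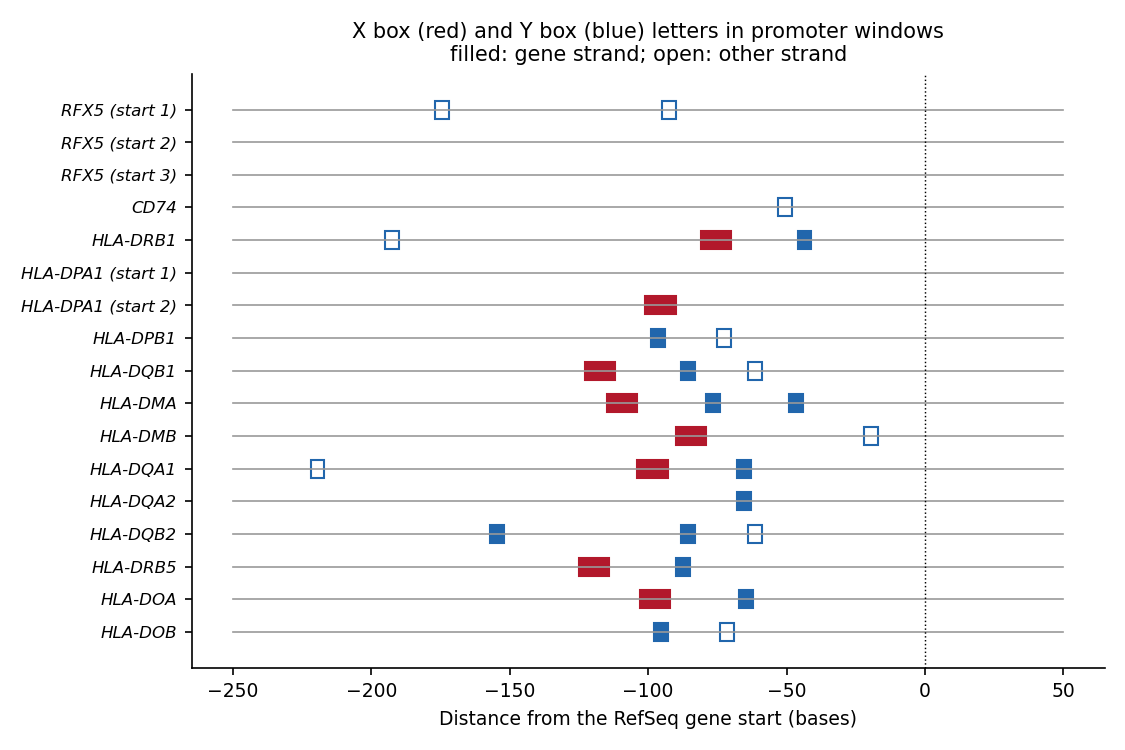
Positions of the X box core (red) and the Y box core (blue) in RefSeq promoter windows of class II genes, CD74 and RFX5, by distance from the gene start in bases, with filled boxes on the gene's strand and open boxes on the other. In HLA-DRB1, HLA-DQB1, HLA-DMA, HLA-DQA1, HLA-DRB5 and HLA-DOA the red box is followed by a blue box 24 or 25 bases downstream.

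The knockdown libraries held 20044602 to 21670135 counts and the NC libraries 24778469 to 26373960. ENO1 itself (ENSG00000074800) averaged 102 ± 1.25 CPM in the knockdown libraries and 3262 ± 22.6 CPM in the NC libraries (SD, n = 3 each; CPM are depth-scaled counts on TMM-scaled library sizes). The groups differed widely: of 14635 genes that passed the filter on low counts, 29.4% were higher in the knockdown cells, 30.5% lower and 59.9% either, taking edgeR's quasi-likelihood test with an adjusted p under 0.05, and the median log2 fold change over all of them was 0.0043. Knockdown replicate 3 and NC replicate 2 were the least like their group: chi-square over its degrees of freedom was 3.81 and 3.95 in the pairs with knockdown replicate 3 (2.24 in the other knockdown pair) and 2.74 and 3.02 in those with NC replicate 2 (2.06 in the other NC pair). Separate cultures are not stated for the libraries of a group, so all p-values describe the spread of these libraries, which may be technical.

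Each of the 10 class II genes was higher in the knockdown cells. The 10 genes together took 0.0803 to 0.0826% of the counts in the knockdown libraries and 0.0381 to 0.0386% in the NC libraries. In each of the 10 genes, all knockdown libraries lay above all NC libraries in CPM, as they did in 31.8% of the genes tested. Of the 8 members that reached the filter in every library, 8 rose, against a background of 29.4% of the genes tested, and 5 of them rose at least 2-fold, as 6.51% of the tested genes did. The members were chosen with earlier results of these data known, so their count beside the background is a description only. HLA-DPB1 and HLA-DMB also passed the test, but they passed the filter through the knockdown libraries, so that a tested value for them had to come with a higher level there. These are levels in bulk RNA, in which more cells that express a gene and more RNA per cell cannot be told apart.

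**Figure D2:**
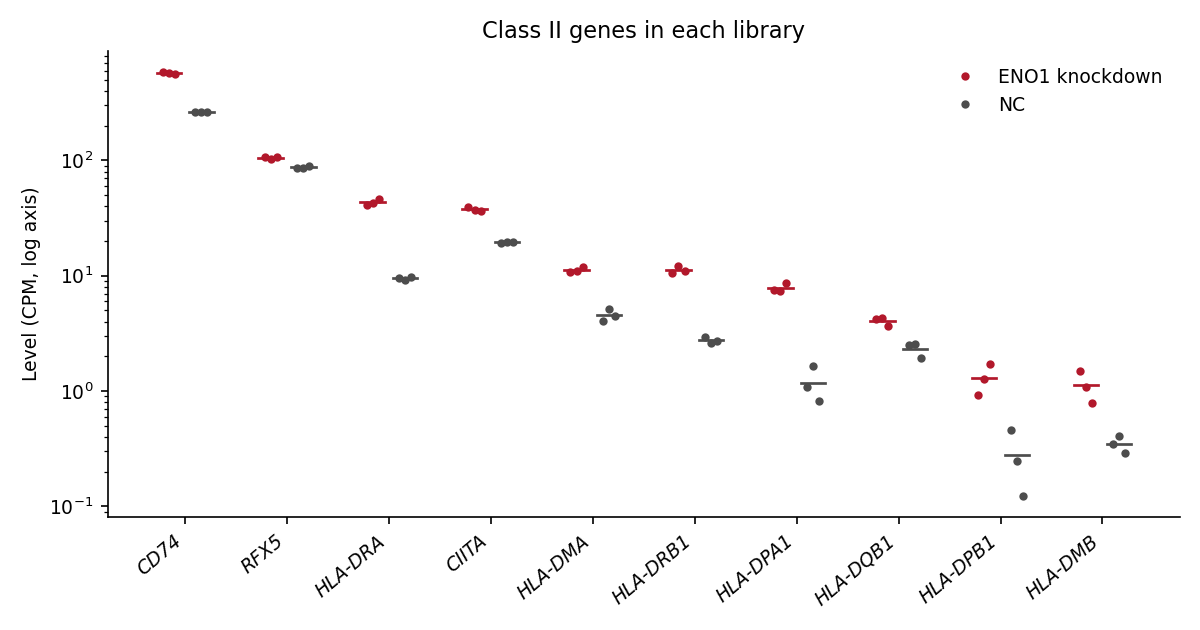
Level of the 10 class II genes in each library, in CPM on a log axis, with ENO1 knockdown libraries in red and NC libraries in grey and a line at each mean, ordered by the knockdown mean. The knockdown points of a gene lie above its NC points throughout, by the narrowest margin for RFX5, which averaged 105 CPM in the knockdown libraries and 87.1 CPM in the NC libraries.

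CIITA (ENSG00000179583, GRCh38 chromosome 16, 10866222 to 10943021, plus strand), the coactivator on which class II transcription depends, was at 39.8, 37.4 and 36.3 CPM in the knockdown libraries and at 19.2, 19.6 and 19.5 CPM in the NC libraries. The groups were well apart, at 37.8 ± 1.81 CPM in the knockdown libraries and 19.5 ± 0.226 CPM in the NC libraries (SD, n = 3 each). The difference was 1.95-fold, or 0.96 ± 0.06 on the log2 scale (± gives the approximate standard error of a log2 fold change here and below; edgeR adjusted p = 3.88e-13). Its value carries an uncertainty of assignment: 11.6% of its exonic bases overlap DEXI on the opposite strand, and 11.5% of its 50-base stretches also occur in transcripts of other genes. DEXI itself was at 5.72 to 7.08 CPM in the knockdown libraries and 5.25 to 6.89 CPM in the NC libraries, which overlap (edgeR adjusted p = 0.265).

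RFX5 (ENSG00000143390, chromosome 1, 151340640 to 151347357, minus strand) encodes the largest subunit of the RFX complex, which binds the X box. It was at 106, 103 and 106 CPM in the knockdown libraries and 86.1, 85.6 and 89.5 CPM in the NC libraries. Its rise was the smallest of the 10, 1.21-fold, or 0.27 ± 0.04 on the log2 scale (edgeR adjusted p = 1.11e-06). A larger rise than that of RFX5 was measured in 28.7% of all tested genes, against 7.10% for CIITA and 5.44% for CD74.

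CD74 (ENSG00000019582, chromosome 5, 150401637 to 150412929, minus strand), the invariant chain, was the most abundant of the 10 by far. It had 586, 574 and 565 CPM in the knockdown libraries and 262, 265 and 263 CPM in the NC libraries, a 2.18-fold difference (log2 fold change 1.13 ± 0.03, edgeR adjusted p = 3.74e-22). CD74 alone held 71.4 to 72.4% of the counts of the 10 genes in the knockdown libraries and 67.1 to 67.6% in the NC libraries.

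The classical chains HLA-DRA and HLA-DRB1 form HLA-DR, the class II molecule that is usually the most abundant on the cell surface. HLA-DRA (ENSG00000204287, chromosome 6, 32439842 to 32445046, plus strand) was at 41.2, 42.9 and 46.4 CPM in the knockdown libraries and 9.56, 9.14 and 9.72 CPM in the NC libraries. The groups were far apart, and the fold change was 4.58 (log2 2.20 ± 0.07, edgeR adjusted p = 1.05e-19). HLA-DRB1 (ENSG00000196126, chromosome 6, 32578769 to 32589848, minus strand) was at 10.6, 12.2 and 11.0 CPM in the knockdown libraries and 2.97, 2.58 and 2.71 CPM in the NC libraries, a 4.09-fold difference (log2 2.03 ± 0.13, edgeR adjusted p = 1.59e-13). In both DR genes the groups were clear of overlap. Of the 50-base stretches of HLA-DRB1, 9.92% also occur in HLA-DRB5, HLA-DRB6 or HLA-DPB1, so its reads could in part be shared with those genes.

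HLA-DPA1 (ENSG00000231389, chromosome 6, 33064569 to 33080775, minus strand) had the largest fold change of the 10 genes. It was at 7.48, 7.31 and 8.61 CPM in the knockdown libraries and 1.08, 1.64 and 0.821 CPM in the NC libraries, which rest on 161 to 175 counts in a knockdown library and 20 to 40 in an NC library. The difference was 6.58-fold, or 2.72 ± 0.19 on the log2 scale (edgeR adjusted p = 1.30e-12). Its partner HLA-DPB1 (ENSG00000223865, chromosome 6, 33075926 to 33087201, plus strand) had only 20, 28 and 35 counts in the knockdown libraries and 12, 6 and 3 in the NC libraries. For HLA-DPB1 the ratio of summed counts, scaled to library size, was 4.62 (95% exact interval 2.84 to 7.86, counting error only). The fitted log2 fold change of HLA-DPB1 was 2.19 ± 0.42 (edgeR adjusted p = 6.75e-05). The 5′ ends of the DP genes overlap on opposite strands by 96 exonic bases, 1.67% of HLA-DPA1 and 3.44% of HLA-DPB1.

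HLA-DQB1 (ENSG00000179344, chromosome 6, 32659467 to 32668383, minus strand) encodes the beta chain of HLA-DQ. Its levels were 4.23, 4.31 and 3.69 CPM in the knockdown libraries and 2.51, 2.54 and 1.93 CPM in the NC libraries. The groups did not overlap, but the 1.75-fold difference was the smallest among the chains (log2 fold change 0.81 ± 0.18, edgeR adjusted p = 0.000341). Its antisense gene HLA-DQB1-AS1 covers 4.91% of its exonic bases, and the strand setting of the counting is not given.

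HLA-DMA and HLA-DMB encode HLA-DM, which edits the peptides that class II molecules carry. HLA-DMA (ENSG00000204257, chromosome 6, 32948613 to 32969094, minus strand) was at 10.9, 11.1 and 11.9 CPM in the knockdown libraries and 4.01, 5.17 and 4.43 CPM in the NC libraries. The rise of HLA-DMA was 2.49-fold (log2 fold change 1.32 ± 0.12, edgeR adjusted p = 2.55e-10). HLA-DMB (ENSG00000242574, chromosome 6, 32934629 to 32941070, minus strand) had 32, 24 and 16 counts in the knockdown libraries and 9, 10 and 7 in the NC libraries. The ratio of summed counts of HLA-DMB was 3.24 (95% exact interval 2.04 to 5.28, counting error only), and its fitted log2 fold change was 1.68 ± 0.39 (edgeR adjusted p = 0.000585). On the same strand, the gene AL645941.2 overlaps 6.87% of the exonic bases of HLA-DMA and 9.41% of those of HLA-DMB. BRD2, on the opposite strand, overlaps 2.17% of those of HLA-DMA. The assignment of reads to both DM genes is uncertain to that extent.

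**Figure D3:**
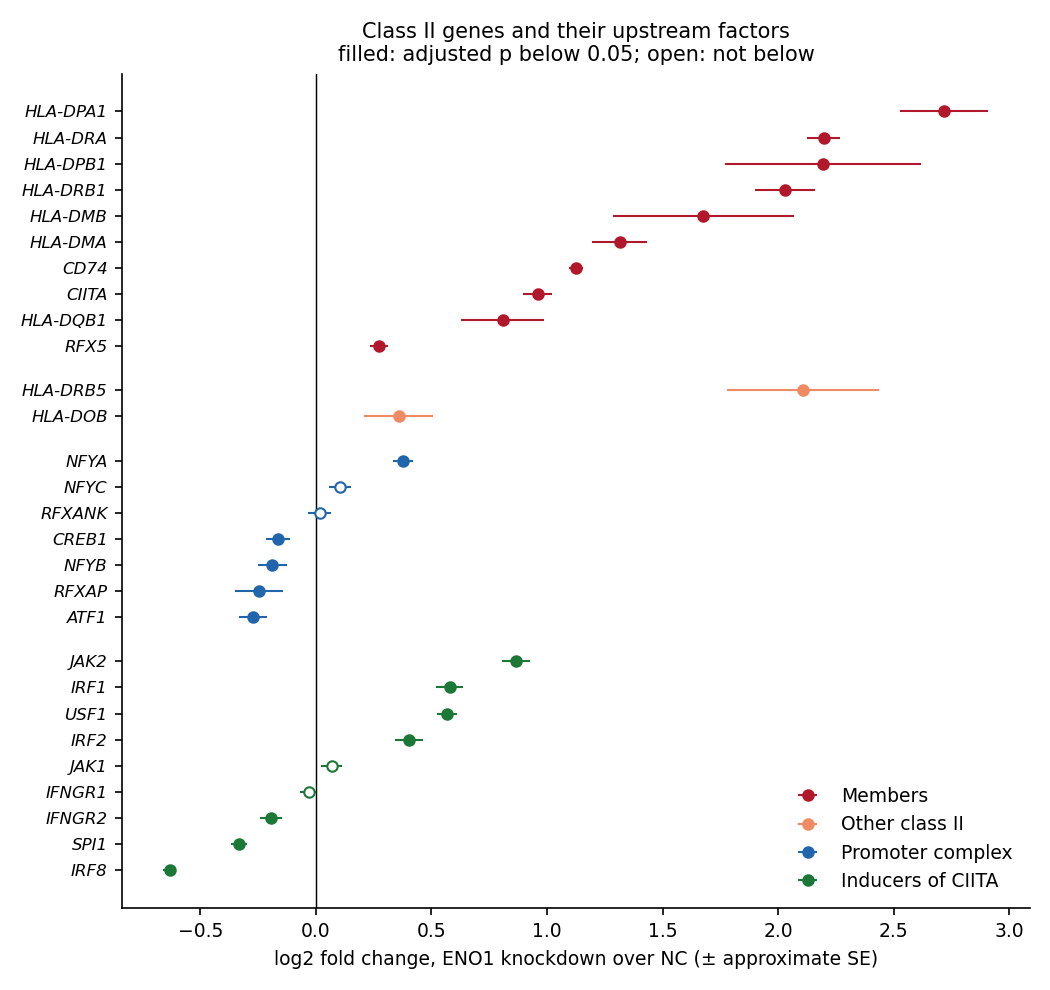
Log2 fold change of the ENO1 knockdown over NC with its approximate standard error, for the 10 members, the other tested class II genes, the promoter complex and the inducers of CIITA. The members run from 0.27 (RFX5) to 2.72 (HLA-DPA1), whereas the promoter complex stays between -0.27 and 0.38.

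Per length of transcript, the levels spanned a wide range in both groups. CD74 averaged 586 ± 10.8 CPM per kilobase in the knockdown libraries and 269 ± 1.89 in the NC libraries (SD, n = 3 each). HLA-DRA followed among the chains at 34.0 ± 2.07 and 7.40 ± 0.235 CPM per kilobase in knockdown and NC libraries (SD, n = 3 each). HLA-DMA averaged 10.05 ± 0.484 CPM per kilobase in the knockdown libraries and 4.04 ± 0.521 in the NC libraries, and HLA-DRB1 9.17 ± 0.643 in the knockdown libraries and 2.24 ± 0.160 in the NC libraries (SD, n = 3 each). In the NC libraries the level per kilobase of HLA-DMA was above that of HLA-DRB1, while in the knockdown libraries their means lay within about the spread of the replicates. HLA-DPA1, HLA-DQB1, HLA-DPB1 and HLA-DMB were at 4.58, 2.35, 0.838 and 0.803 CPM per kilobase in the knockdown libraries and at 0.693, 1.34, 0.178 and 0.249 in the NC libraries. HLA-DPA1 was thus below HLA-DQB1 in the NC libraries and above it in the knockdown libraries. RFX5 was at 29.4 CPM per kilobase in the knockdown libraries and 24.4 in the NC libraries. Lengths are those of the longest APPRIS principal transcript, and CIITA is left out because that transcript, of 16059 bases, runs into the region of DEXI. The HLA alleles of MV4-11 were not compared with the reference sequence, so the level of one HLA gene beside another also depends on how well its reads align.

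Ratios of 2 genes within a library do not depend on the scaling between libraries and show how unequal the rises were. HLA-DRA had 0.0703, 0.0747 and 0.0821 counts per count of CD74 in the knockdown libraries and 0.0366, 0.0345 and 0.0369 in the NC libraries, a log2 difference of 1.07. HLA-DRA per CIITA was at 1.03, 1.15 and 1.28 in the knockdown libraries and 0.498, 0.466 and 0.498 in the NC libraries, a log2 difference of 1.24. HLA-DQB1 per HLA-DRB1 was lower with the knockdown, at 0.397, 0.354 and 0.335 against 0.844, 0.984 and 0.712 in the NC libraries. CIITA per RFX5 was at 0.375, 0.362 and 0.342 in the knockdown libraries and 0.223, 0.229 and 0.218 in the NC libraries. In these 4 ratios the groups did not overlap.

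The groups overlapped in the 3 ratios between partner chains. HLA-DRB1 per HLA-DRA ran from 0.238 to 0.284 in the knockdown libraries and from 0.278 to 0.310 in the NC libraries. HLA-DPB1 per HLA-DPA1 ran from 0.124 to 0.200 in the knockdown libraries and from 0.150 to 0.429 in the NC libraries, and HLA-DMA per HLA-DMB from 7.31 to 15.1 in the knockdown libraries and from 11.6 to 15.4 in the NC libraries. The log2 difference of the HLA-DPB1 to HLA-DPA1 ratio was -0.39, and 0.12 without NC replicate 1. Over the 7 ratios, the two-sided exact permutation p was 0.1 for the 4 that did not overlap, which is the smallest that 3 libraries against 3 allow, and 0.3 to 0.7 for the others. Adjusted over the 7 ratios by Benjamini-Hochberg, these exact p were 0.175 and 0.42 to 0.7, so none could pass at this number of libraries.

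**Figure D4:**
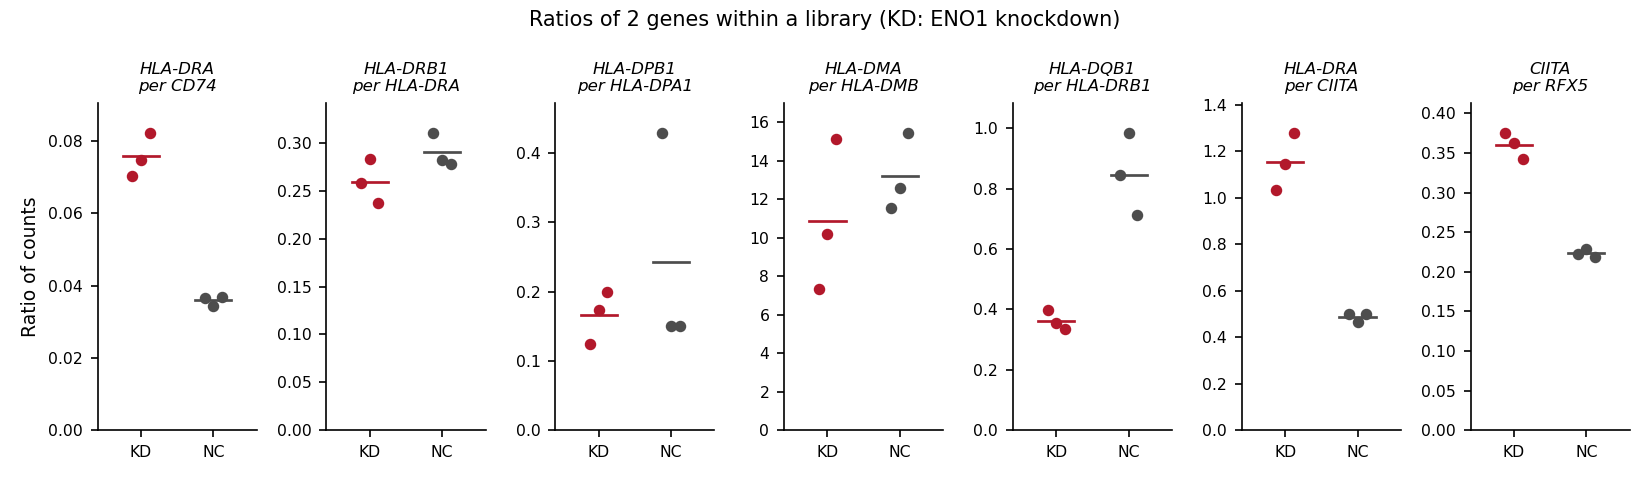
Counts of one class II gene per count of another within each library, for 7 pairs, with knockdown libraries in red on the left of each panel and NC libraries in grey on the right, and a line at each mean. HLA-DRA per CD74 sits between 0.0703 and 0.0821 in the knockdown libraries, above the 0.0345 to 0.0369 of the NC libraries, while the panels of partner chains overlap.

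Among the other class II genes, 5 of the 10 listed symbols were among the rows of the table and 2 passed the filter. HLA-DRB5, a second DR beta chain, was at 2.37, 1.82 and 1.57 CPM in the knockdown libraries and 0.424, 0.533 and 0.369 CPM in the NC libraries, and rose by 2.11 on the log2 scale (edgeR adjusted p = 3.37e-06). It too passed the filter through the knockdown libraries, and 8.42% of its 50-base stretches also occur in HLA-DRB1 or HLA-DRB6. HLA-DOB, part of HLA-DO, which restrains HLA-DM, was at 4.97, 5.94 and 5.36 CPM in the knockdown libraries and 3.78, 4.10 and 4.84 CPM in the NC libraries. Its log2 fold change of 0.36 had an edgeR adjusted p of 0.0388, which was 0.0550 to 0.164 without knockdown replicate 2 or 3 or NC replicate 1 or 2, and 26.1% of its 50-base stretches also occur in an overlapping gene, so its value is uncertain. HLA-DOA, the other chain of HLA-DO, had 2 counts in all, in 1 NC library. HLA-DQA1, the partner of HLA-DQB1, had 18, 15 and 7 counts in the knockdown libraries and 3, 3 and 10 in the NC libraries, which overlap.

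The remaining factors of the promoter complex showed small differences. Of the 7 listed, 1 rose and 4 passed the test as lower, with a median log2 fold change of -0.16. Over all tested genes, 29.4% were higher and 30.5% lower. NFYA, the DNA-binding subunit of NF-Y, was at 111, 113 and 123 CPM in the knockdown libraries and 89.3, 85.7 and 91.0 CPM in the NC libraries, a rise of 0.38 (edgeR adjusted p = 1.73e-08). ATF1, a relative of CREB, fell to 35.4, 32.4 and 36.6 CPM in the knockdown libraries, against 43.2, 39.1 and 43.7 CPM in the NC libraries (log2 fold change -0.27, edgeR adjusted p = 0.000316). CREB1, NFYB and RFXAP had log2 fold changes of -0.16, -0.19 and -0.25 (edgeR adjusted p = 0.00881, 0.0119 and 0.0418). With plain library-size scaling these 3 no longer passed (edgeR adjusted p = 0.0692, 0.0685 and 0.112), so that 1 gene was lower. Leaving out 1 library could also end their calls: NC replicate 2 or knockdown replicate 2 for CREB1, NC replicate 3 for NFYB, and any of NC replicates 1 and 3 and knockdown replicates 1 and 2 for RFXAP (edgeR adjusted p = 0.0606 to 0.163). RFXAP lost its call under 10 of the 16 alternatives described below. These included upper-quartile scaling (edgeR adjusted p = 0.0858) and DESeq2 (DESeq2 adjusted p = 0.101), so its fall is uncertain. RFXANK, the third RFX subunit, was at 59.7, 57.4 and 54.5 CPM in the knockdown libraries and 55.5, 58.5 and 55.8 CPM in the NC libraries (edgeR adjusted p = 0.798), and NFYC had a log2 fold change of 0.10 (edgeR adjusted p = 0.0556). NFYC passed under 5 of the 16 alternatives. Among them were plain library-size scaling (edgeR adjusted p = 0.00493), upper-quartile scaling (0.0102) and leaving out NC replicate 3 (0.0417).

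Factors known to act upstream of CIITA moved in both directions. Of the 10 listed, 9 were tested, 4 rose and 3 fell, and the median was 0.07 on the log2 scale. All tested genes moved in both directions too, 29.4% higher and 30.5% lower. The kinase JAK2 was at 38.2, 40.7 and 39.9 CPM in the knockdown libraries and 21.5, 21.7 and 22.0 CPM in the NC libraries. IRF1 and USF1, which bind the interferon-responsive promoter of CIITA, rose by 0.58 and 0.57 (edgeR adjusted p = 1.71e-09 and 5.40e-12), JAK2 by 0.87 (1.15e-12) and IRF2 by 0.40 (2.37e-06).

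The receptor genes and the myeloid factors were lower or did not pass the test. IFNGR2 fell by 0.19 on the log2 scale (edgeR adjusted p = 0.00110). IFNGR1 was at -0.03 (edgeR adjusted p = 0.485), with a sign that turned under upper-quartile and plain scaling, and JAK1 was at 0.07 (edgeR adjusted p = 0.184). JAK1 passed the test under those 2 scalings (edgeR adjusted p = 0.0375 and 0.0180) and with the filter of 5 CPM in 3 libraries (0.0348). IFNG, the gene of interferon-gamma, was not among the rows of the table. IRF8, a factor of monocyte and dendritic cell development, fell to 328, 329 and 330 CPM in the knockdown libraries, against 514, 509 and 506 CPM in the NC libraries (log2 fold change -0.63, edgeR adjusted p = 6.06e-17). SPI1, the myeloid factor PU.1, fell to 264, 264 and 239 CPM in the knockdown libraries, against 317, 325 and 324 CPM in the NC libraries (log2 fold change -0.33, edgeR adjusted p = 5.49e-09).

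Cofactors and repressors of CIITA were mixed as well, with 4 of 11 higher and 6 lower and a median log2 fold change of -0.15. The shares over all tested genes were 29.4% higher and 30.5% lower. PRDM1, a repressor that acts on a CIITA promoter in plasma cells, was at 5.62, 5.67 and 6.10 CPM in the knockdown libraries and 1.20, 1.27 and 1.03 CPM in the NC libraries, a log2 fold change of 2.31 (edgeR adjusted p = 1.91e-11). The arginine methyltransferase CARM1 fell to 65.6, 66.0 and 63.3 CPM in the knockdown libraries, against 129, 127 and 128 CPM in the NC libraries. The deacetylase HDAC2 had a log2 fold change of -0.43 (edgeR adjusted p = 2.53e-12), and the acetyltransferase CREBBP one of 0.37 (edgeR adjusted p = 1.90e-09).

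Genes of antigen processing, most of them proteases that prepare antigen or trim the invariant chain, were mostly higher. Of 10 listed, 8 were tested, 5 rose and 1 fell, with a median of 0.43. The shares among all tested genes were 29.4% higher and 30.5% lower. Cathepsin B (CTSB) was at 368, 374 and 361 CPM in the knockdown libraries and 250, 245 and 245 CPM in the NC libraries, a log2 fold change of 0.58 (edgeR adjusted p = 1.92e-15). CTSZ, CTSD and SPPL2A, which cleaves the last membrane fragment of CD74, rose by 0.49, 0.40 and 0.46 (edgeR adjusted p = 1.11e-13, 6.03e-10 and 3.22e-08). CTSS, a protease that trims the invariant chain, rose by 0.37 (edgeR adjusted p = 2.79e-07), and CTSH fell by 0.16 (edgeR adjusted p = 0.00777), both named after their values were seen. CTSH no longer passed with plain library-size scaling or without NC replicate 3 (edgeR adjusted p = 0.0770 and 0.0971).

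Of the 11 genes of class II traffic and turnover, 3 rose and 5 fell, with a median of -0.07, while over all tested genes 29.4% rose and 30.5% fell. MARCHF8, a ubiquitin ligase that directs class II molecules to lysosomes, fell to 7.76, 8.30 and 7.62 CPM in the knockdown libraries, against 22.1, 19.2 and 22.1 CPM in the NC libraries (log2 fold change -1.42, edgeR adjusted p = 2.52e-13). CD83, which protects surface class II from ubiquitination by MARCHF1, was at 38.6, 34.6 and 36.6 CPM in the knockdown libraries and 23.6, 22.5 and 24.1 CPM in the NC libraries (log2 fold change 0.65, edgeR adjusted p = 1.14e-09). LAMP2 had a log2 fold change of -0.43 (edgeR adjusted p = 1.05e-11) and CD63 one of 0.35 (edgeR adjusted p = 1.35e-09). MARCHF1 itself, named after its values were seen, was at -0.07 (edgeR adjusted p = 0.650).

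Of 7 genes for partners of CD74 and class II at the cell surface, 5 were tested, 3 rose and 1 fell. Among all tested genes, 29.4% rose and 30.5% fell. CXCR4, a co-receptor of CD74 for the cytokine MIF, fell to 21.5, 21.8 and 22.8 CPM in the knockdown libraries, against 67.0, 65.8 and 65.4 CPM in the NC libraries (log2 fold change -1.59, edgeR adjusted p = 1.82e-19). CD44 (a signalling partner of CD74), CXCR2 (another MIF receptor) and CD4 (the T cell co-receptor for class II) rose by 0.46, 0.45 and 0.22 (edgeR adjusted p = 1.56e-10, 0.00244 and 9.46e-08).

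Genes that share a chromosomal region with the class II genes, but are not class II genes, did not move in 1 direction. In the region on chromosome 6, 14 of 15 listed neighbours were tested, 6 rose and 5 fell, and the median was 0.07. Among all tested genes 29.4% were higher and 30.5% lower, so moves in both directions are not particular to this region. TAP1, a peptide transporter of the class I pathway, rose by 1.52 (edgeR adjusted p = 1.40e-16) and BRD2, a bromodomain protein whose exons overlap those of HLA-DMA by 55 bases on the other strand, by 0.51 (edgeR adjusted p = 4.23e-15). PSMB8, an immunoproteasome subunit, rose by 0.41 (edgeR adjusted p = 1.01e-09), whereas HSD17B8 had a log2 fold change of -0.997 (edgeR adjusted p = 5.60e-10). Around CIITA, 1 of 6 neighbours rose and 2 fell: NUBP1 at 0.38, CLEC16A at -0.21 and RMI2 at -1.27 (edgeR adjusted p = 9.81e-06, 0.000786 and 5.28e-15). SOCS1 was at 0.19 (edgeR adjusted p = 0.104) and passed with plain library-size scaling (edgeR adjusted p = 0.0381) and with the filter of 5 CPM in 3 libraries (0.0433).

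**Figure D5:**
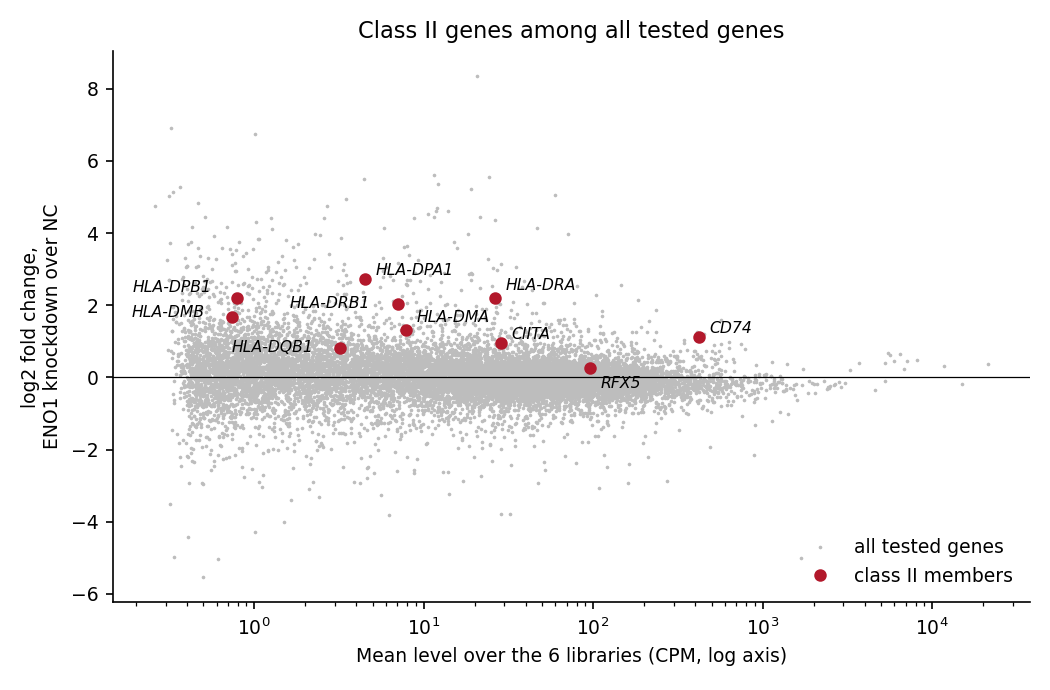
Log2 fold change of the ENO1 knockdown over NC against the mean level in CPM (log axis) for 14635 tested genes in grey and the 10 class II genes in red. RFX5, at 0.27, lies within the main body of genes, and HLA-DPA1, at 2.72, is exceeded by 0.827% of them.

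Markers of professional antigen-presenting cells were read beside these values, and beside the 29.4% of all tested genes that rose and the 30.5% that fell. Of 7 myeloid markers listed for the line, 7 were tested, 4 rose (CD33, FLT3, PTPRC and MEIS1) and 2 fell. The list summed to 1500 to 1581 CPM in the knockdown libraries and 1396 to 1425 CPM in the NC libraries, and FLT3 alone averaged 1018 ± 29.5 CPM in the knockdown libraries and 808 ± 10.2 CPM in the NC libraries (SD, n = 3 each). LYZ, which encodes lysozyme, fell to 51.4 ± 1.01 CPM in the knockdown libraries, against 274 ± 3.43 CPM in the NC libraries (SD, n = 3 each; log2 fold change -2.41, edgeR adjusted p = 3.23e-27). MPO, the myeloperoxidase of neutrophil and monocyte granules, fell to 3.66 ± 0.278 CPM in the knockdown libraries, against 22.4 ± 1.19 CPM in the NC libraries (SD, n = 3 each; log2 fold change -2.61, edgeR adjusted p = 5.17e-18). Of 10 dendritic cell markers, 4 were tested and 4 rose, of which CLEC10A and ZBTB46 reached the filter in every library and CD1C and CD1A in 1 NC library only, and the list summed to 191 to 200 CPM in the knockdown libraries and 87.7 to 91.1 CPM in the NC libraries. CLEC10A, a lectin of dendritic cells and macrophages, made up most of that sum, at 158, 167 and 157 CPM in the knockdown libraries and 67.6, 67.7 and 69.3 CPM in the NC libraries. The lipid-presenting molecule CD1C had 98, 99 and 96 counts in the knockdown libraries and 2, 11 and 9 in the NC libraries, and CD1A had 45, 41 and 50 counts in the knockdown libraries and 8, 13 and 10 in the NC libraries. CLEC9A had 2 counts, in 1 NC library, and 0 in the others, and XCR1, FCER1A and CLEC4C were not among the rows of the table. Of 8 B cell markers, 5 were tested and 3 rose (PAX5, BANK1 and CD79A), and the list summed to 13.1 to 14.6 CPM in the knockdown libraries and 8.41 to 10.5 CPM in the NC libraries. CD1C, CD1A, PAX5, BANK1 and CD79A passed the filter through the knockdown libraries, with at least 2 NC libraries below it. MS4A1, which encodes CD20, was at 0 in all libraries but knockdown replicate 3, which had 5 counts. The macrophage list summed to 1.18 to 1.53 CPM in the knockdown libraries and 1.44 to 2.26 CPM in the NC libraries, with MARCO, its 1 tested gene, lower (edgeR adjusted p = 0.00800, and 0.0823 without NC replicate 3). The T cell list summed to at most 0.279 CPM in a knockdown library and 0.0771 CPM in an NC library. The part of any such cells in the rise of the class II genes was not tested.

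The genes whose profile over the 6 libraries lay closest to the median profile of the 10 members were FNBP1, ENTPD7, INPP5B, TASL and ALG5, with Euclidean distances of 0.0596 to 0.0882 on the log2(CPM + 1) scale, among 9017 genes with a mean of at least 10 CPM. Their log2 fold changes were 1.06, 1.11, 1.05, 1.04 and 1.12. TASL, an adaptor that links endosomal Toll-like receptors to IRF5, averaged 307 ± 4.87 CPM in the knockdown libraries and 149 ± 4.29 CPM in the NC libraries (SD, n = 3 each). With 2 groups of libraries, such a profile holds little beyond the size of the rise on the log2(CPM + 1) scale. The 1 added to the CPM makes the rise of genes at a few CPM, as several members were, smaller on that scale. The median fitted log2 fold change of the 10 members was 1.496, above those of these 5 genes.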

How the data were processed

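Libraries were made from total RNA of 6 MV4-11 samples taken up in Trizol, with an Illumina TruSeq kit, per the labels' protocols. HISAT2 2.0.5 and hg38 were used, per the submitters' processing notes. Which counter, annotation and strand setting were used is not stated in them. The authors deposited raw counts, whole numbers for each Ensembl gene with no normalization. Columns were matched to samples by group and replicate number.

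The test was edgeR 4.0.16's, run in R 4.3.3 (TMM, filterByExpr, robust quasi-likelihood, two-sided), with Benjamini-Hochberg adjustment over 14635 genes and a threshold of 0.05. Standard errors are approximate (the absolute log2 fold change over the square root of the F statistic). Intervals at 95% cover counting error only. The procedure was tested on simulated data in which few genes changed. In the real data 59.9% of the tested genes passed, so the simulation does not check the scaling here. Positions, overlaps and lengths came from GENCODE on GRCh38, promoters from RefSeq. Same-numbered libraries did not deviate together (r = -0.0613 to -0.0024), so the numbers were not taken as pairs.

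The members and lists were chosen with earlier results of these data known. Named were ENO1, the members, the class II, promoter complex and inducer lists, up to 4 genes of the other lists by smallest adjusted p, and the 5 nearest profiles. Alternatives covered scaling (RLE, upper-quartile, plain library size), no filter, a filter of 5 CPM in 3 libraries, DESeq2 1.42.0, limma-voom (limma 3.58.1), the replicate block, thinning to the smallest library, leaving out each library and, added after the data were seen, leaving out NC replicate 2 and knockdown replicate 3 together. The shallowest library holds 20044602 counts. One gene of the inducer list is not reported here and was left out of that list's counts.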

Additional observations from a re-analysis of the deposited data

How the results depend on the processing

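The 10 class II genes kept their direction and passed the threshold under each of 16 alternatives in which they were tested. The filter of 5 CPM in 3 libraries left 7 of them. Among these, HLA-DRB1, HLA-DPA1 and HLA-DMA reached it through the knockdown libraries. A tested value for them under that filter thus had to come with a higher level there. Over all genes tested, 35.9% were higher under that filter and 18.5% with no filter, against 29.4% in the main fit. The log2 fold change of CIITA ran from 0.92 to 1.01, that of HLA-DRA from 2.12 to 2.25, that of HLA-DPA1 from 2.52 to 3.02 and that of HLA-DPB1 from 1.85 to 2.78. With the replicate block, 4165 genes were higher and 4325 lower, against 4309 and 4458 without it, and 10 of the class II genes were higher; the correlations of same-numbered libraries gave no sign of pairing, and the block ended the call of RFXAP (edgeR adjusted p = 0.0532). The sign turned for RFXANK, at -0.0073 with no filter, and when 1 library was left out it ran from -0.017 (without knockdown replicate 1) to 0.045 (without knockdown replicate 3), with -0.0044 without NC replicate 1. It also turned for IFNGR1, at 0.0071 with upper-quartile scaling, 0.022 with plain scaling and 0.0070 with the filter of 5 CPM. Of 71 genes followed through these alternatives, 60 kept direction and side of the threshold in each; HLA-DOB also lost its call with no filter and with DESeq2 (adjusted p = 0.0663 and 0.0841). Neither RFXANK nor IFNGR1 had passed the test, and the cause was not tested. The ratio of HLA-DPB1 to HLA-DPA1 ran from -0.64 to 0.12 on the log2 scale when 1 library was left out, so its sign rests on NC replicate 1. HLA-DPB1 and HLA-DMB are limited by depth, with at most 12 counts in an NC library.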
